A study of Mus musculus with 8 samples.

Results

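Antibodies and T cell receptors are encoded by gene segments, and the RNA of 357 genes of this kind was examined in inguinal (ING) white adipose tissue (WAT) of mice at weaning and in early adulthood. The genes were taken by their symbols, which name a variable (V), diversity (D), joining (J) or constant (C) segment of an immunoglobulin (Ig) or T cell receptor (Tr) locus or a class-switched heavy chain constant gene, and were then selected on detection, an FPKM above 0 in at least 4 of the 8 mice. FPKM is the number of sequenced fragments divided by transcript length and by library size, here summed over the transcripts of a gene. Of 462 symbols that fit the pattern, 357 met the condition on detection, out of 27530 genes with an FPKM above 0 in any mouse. Of these, 207 were immunoglobulin and 149 T cell receptor segments. The remaining symbol, *Tradd*, encodes an adaptor of tumour necrosis factor receptor signalling that shares only the first letters of its name, and it was kept out of all counts and sums below. The heavy chain genes *Ighm* and *Ighd* were not members by definition.

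The study followed mitochondrial function in white fat depots after weaning, and its sequencing compared poly(A)+ RNA of ING WAT from 4 C57BL/6j mice killed at postnatal day 21 (PN21; m1, m49, m138 and m145) with 4 killed at postnatal day 98 (PN98; m35, m106, m114 and m125). All mice came from breeders fed the AIN93G diet and had little food in the night before dissection. According to the study's methods, female pups were killed at PN21, whereas males were weaned and later fed AIN93M or a Western style diet (WSD) until PN98. The study also reports epididymal fat, a depot of male mice, at PN21, so males were among its PN21 mice. The labels give neither sex nor diet of the sequenced mice, so sex and diet cannot be told apart from age here. The whole depot was frozen and extracted, and in such bulk RNA fewer cells of a type and less RNA per cell cannot be told apart.

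Each B cell joins V, D and J segments of the heavy chain locus and V and J segments of a kappa (*Igk*) or lambda (*Igl*) light chain locus, and each T cell does the same at the alpha and beta or at the gamma and delta loci. The joined segment is spliced to a constant gene, so that nearly all B cells carrying kappa chains use *Igkc*, and T cells with alpha and beta chains use *Trac* and either *Trbc1* or *Trbc2*. After activation, B cells can replace the heavy chain constant gene *Ighm* by those of the IgG, IgA or IgE classes (class switching), and plasma cells secrete the product. Lymphocytes are abundant in the lymph node that lies within the inguinal fat pad and are also found in adipose tissue itself.

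J segments give the conserved end of the variable domain, and 8 of them are shown because the comparison of short segments below turns on their length and their fragments. The letters were read from GENCODE transcripts of the mm10 (GRCm38) build, 5′ to 3′ on the coding strand, and the capitals mark the 12 bases that encode phenylalanine or tryptophan, glycine, any residue and glycine, the motif that defines a J segment. *Traj48* lies at chr14:54169809-54169868, *Traj27* at chr14:54192303-54192361 and *Traj23* at chr14:54196081-54196140, all on the plus strand. *Trbj1-3* lies at chr6:41534323-41534376, *Trbj2-1* at chr6:41542754-41542803 and *Trbj2-3* at chr6:41543223-41543271, also on the plus strand, and *Ighj1* at chr12:113429781-113429833 and *Ighj4* at chr12:113428514-113428567 lie on the minus strand.
Traj48: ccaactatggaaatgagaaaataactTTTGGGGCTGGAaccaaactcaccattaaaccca
Traj23: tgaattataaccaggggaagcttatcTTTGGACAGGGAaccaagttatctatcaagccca
Traj27: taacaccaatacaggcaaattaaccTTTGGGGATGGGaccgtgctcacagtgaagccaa
Trbj1-3: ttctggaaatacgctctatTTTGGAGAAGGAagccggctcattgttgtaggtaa
Trbj2-1: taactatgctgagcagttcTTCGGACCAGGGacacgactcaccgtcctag
Trbj2-3: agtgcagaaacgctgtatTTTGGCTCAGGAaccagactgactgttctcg
Ighj1: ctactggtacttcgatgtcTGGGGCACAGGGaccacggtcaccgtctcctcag
Ighj4: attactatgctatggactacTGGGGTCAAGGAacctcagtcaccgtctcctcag

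The motif was present in 22 of the 23 J members. The members shown are 49 to 60 bases long, shorter than a sequenced fragment usually is. *Trbc1* and *Trbc2* are shown because reads of the beta chain constant genes are hard to assign to either. Their transcripts were identical at 490 of 512 aligned bases (95.7%), and the stretch from base 379 to base 498 below holds 18 of the mismatches, given in capitals. *Trbc1* lies at chr6:41538218-41539347 and *Trbc2* at chr6:41546730-41548181, both on the plus strand.
Trbc1: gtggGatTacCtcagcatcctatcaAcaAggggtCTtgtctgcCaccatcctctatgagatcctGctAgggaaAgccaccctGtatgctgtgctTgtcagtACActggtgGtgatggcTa
Trbc2: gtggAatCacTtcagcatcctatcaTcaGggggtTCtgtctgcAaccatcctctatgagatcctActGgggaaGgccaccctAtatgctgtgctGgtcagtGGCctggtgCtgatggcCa

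Detection chose the members, so how many mice a member was detected in is described and not tested. Of the members, 67 were detected in every mouse and 26 in exactly 4 mice. The members just inside the threshold were 17 V segments with a mean FPKM of 0.0978 to 0.521 and 9 J segments with a mean FPKM of 182 to 1466. *Traj48* was the 1 member detected in all 4 PN21 mice and in no PN98 mouse, so it entered through PN21 alone. Just outside, with values above 0 in 3 mice, were 10 V segments (mean FPKM 0.105 to 0.379) and 18 J segments (54.5 to 1094). The constant gene of IgE, *Ighe*, was above 0 in 2 mice, the PN98 mice m35 (0.155 FPKM) and m106 (0.153), and was not a member.

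The light chain constant genes had high levels in all PN21 mice and levels spread over more than a decade at PN98. *Igkc*, the constant gene of kappa light chains at chr6:70726435-70726757, was at 571, 674, 1259 and 1195 FPKM in PN21 mice m1, m49, m138 and m145. At PN98 it was at 1539 FPKM in m35, 369 in m106, 110 in m114 and 31.2 in m125. The ages overlapped through m35, which lay above every PN21 mouse, whereas m106, m114 and m125 lay below every PN21 mouse. *Iglc2*, a constant gene of lambda light chains, had the same order of PN98 mice, with 139, 34.9, 10.1 and 6.11 FPKM in m35, m106, m114 and m125 against 57.5 to 158 FPKM at PN21. On the scale of log2(FPKM + 1), *Igkc* differed by −2.04 (SE 1.05) and *Iglc2* by −1.81 (SE 0.87) between PN98 and PN21 (limma, Benjamini-Hochberg adjusted p = 0.236 and 0.212). Neither difference passed the threshold of 0.05. The ratio of *Igkc* to *Iglc2* was 7.99 to 12.1 at PN21 and 5.11 to 11.1 at PN98, so that both light chains moved largely together from mouse to mouse.

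For the T cell receptor constant genes, too, m35 was the highest PN98 mouse and m106 the next. *Trac*, the constant gene of the alpha chain, was at 71.9, 150, 214 and 110 FPKM in m1, m49, m138 and m145 and at 152, 25.9, 9.96 and 3.25 FPKM in m35, m106, m114 and m125. *Trbc1* was at 98.0 to 231 FPKM at PN21 and at 180, 30.9, 4.95 and 5.47 FPKM in the PN98 mice, and *Trbc2* at 116 to 271 and at 218, 34.2, 5.66 and 5.41 FPKM. Again m35 lay within the range of the PN21 mice and the other 3 PN98 mice lay below it. The differences were −2.61 (SE 0.99) for *Trac*, −2.89 (SE 1.02) for *Trbc1* and −2.99 (SE 1.06) for *Trbc2* on the log2(FPKM + 1) scale, and none passed (limma adjusted p = 0.145, 0.128 and 0.129). *Trbc1* was at 0.816 to 0.866 of *Trbc2* at PN21 and at 0.825 to 1.01 at PN98, and with such similar transcripts the split between them is uncertain.

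Summed by class, the V segments repeated what the constant genes showed. The summed FPKM of 99 *Ighv* members was 143, 181, 440 and 181 in the PN21 mice and 500, 120, 26.6 and 6.01 in m35, m106, m114 and m125. For 95 *Igkv* members the sums were 292, 349, 763 and 459 at PN21 and 915, 222, 57.5 and 18.8 at PN98. For 3 *Iglv* members they were 32.9 to 96.1 at PN21 and 99.7, 20.4, 5.28 and 3.44 at PN98. In all 3 immunoglobulin loci, then, m35 held the highest sum of the 8 mice and m125 the lowest. For 98 *Trav* members the sums were 76.3, 118, 176 and 83.5 at PN21 and 144, 18.4, 4.00 and 2.88 at PN98, and for 21 *Trbv* members 100, 193, 302 and 174 at PN21 and 249, 37.8, 2.64 and 4.27 at PN98. Here m35 lay within the PN21 range and the other PN98 mice below it.

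**Figure D1:**
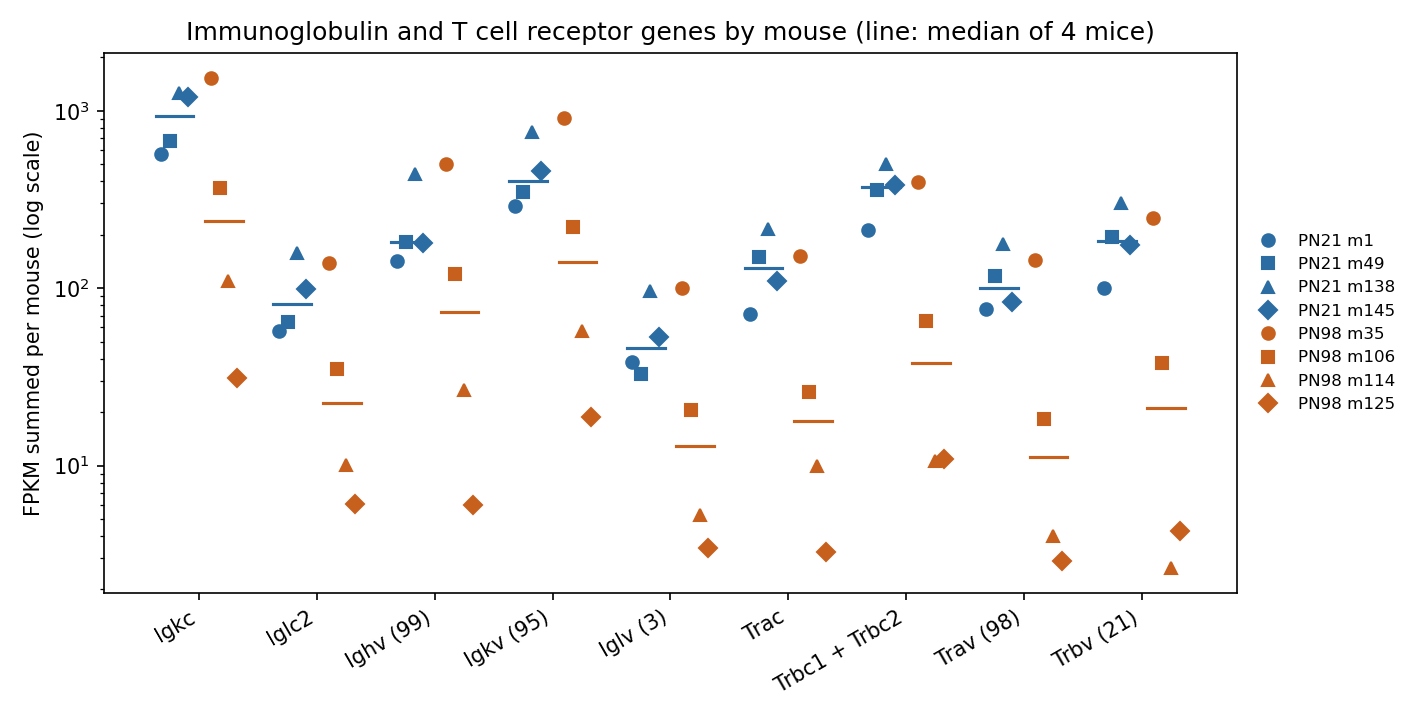
FPKM per mouse (log scale) of light chain and T cell receptor constant genes and of V segments summed by locus (number of segments in brackets), with PN21 mice in blue, PN98 mice in orange and a line at the median of 4 mice. PN98 mouse m35 lies among or above the PN21 mice in every column, whereas m106, m114 and m125 lie below them, as for *Igkc* at 369, 110 and 31.2 FPKM.

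Relative to the mean of the PN21 mice, summed immunoglobulin V segments were 2.00 times as high in m35 and 2.09, 8.46 and 26.8 times lower in m106, m114 and m125. Summed T cell receptor V segments were 1.29 times as high in m35 and 5.41, 38.9 and 36.2 times lower in m106, m114 and m125. Among the PN98 mice, m35 and m125 differed 53.6-fold in immunoglobulin V segments, whereas the highest and lowest PN21 mice differed 2.75-fold. As a difference of means of log2(sum + 1), PN98 minus PN21, the sums came to −1.92 (SE 1.18) for 7 immunoglobulin constant genes, −1.84 (SE 1.27) for immunoglobulin V segments, −2.90 (SE 1.21) for the 3 T cell receptor constant genes and −2.96 (SE 1.33) for T cell receptor V segments. No test was made of these sums. The SE values reflect the spread at PN98, where the SD of log2(sum + 1) was 2.29 to 2.59, against 0.55 to 0.64 at PN21. *Igkc* relative to *Trac* was 4.48 to 10.9 at PN21 and 9.60 to 14.2 at PN98, with overlap.

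The V segments of the gamma and delta loci, used by a minor T cell class, had low values. Summed over 5 *Trdv* members they were 1.58, 4.60, 4.64 and 4.59 FPKM at PN21 and 4.86, 0.869, 1.36 and 1.25 FPKM at PN98. *Trdv4* was above 0 in 3 PN21 mice (0.788 to 1.43 FPKM) and in all 4 PN98 mice (0.372 to 1.36), and in m114 and m125 it held the whole *Trdv* sum. So the delta segments were not all low in the same PN98 mice. *Trdv5* was at 0.788 to 1.93 FPKM at PN21 and, at PN98, above 0 in m35 alone (1.80). *Trdv2-2* was at 0 in m1, m114 and m125 and at most at 1.64 FPKM. The gamma segment *Trgv2* was at 0.311 to 2.51 FPKM at PN21 and at 0 to 1.28 FPKM at PN98. The ages overlapped in all of these, and none had a mean FPKM high enough to be tested.

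For the single genes, limma was fitted to log2(FPKM + 1) of all genes whose FPKM averaged 1 or more over the 8 mice. Of the 356 segments 223 entered, and the other 133 had a lower mean or, in the case of *Ighv3-6*, decimals that could not be restored. Over all genes tested, 853 of 16131 (5.29%) had an adjusted p under 0.05, 2.96% lower and 2.32% higher at PN98. Of the 223 segments, 2 had an adjusted p under 0.05 and a lower level at PN98 (*Traj48* and *Trav6-7-dv9*) and 0 had a higher level, a smaller share than over all genes. *Traj48* was selected through its PN21 values alone, so its place in this count is a description. *Trav6-7-dv9* was above 0 in all 4 PN21 mice but in only 2 PN98 mice. Its mean reached 1 through PN21 (1.81 FPKM against 0.319 at PN98). The selection therefore leaned on PN21 for this call too. At an unadjusted p under 0.05 there were 39 lower and 1 higher (*Ighg2b*), against 27.4% of all genes in either direction. The fitted difference was below 0 for 214 of the 223 segments (96.0%), against 67.2% of all genes tested, and its median was −0.95 against −0.22 for all genes. The shift of −0.22 over all genes was 0.02 when mice were scaled to nuclear genes and −0.02 with median of ratios scaling, and 91.3% and 92.1% of the segments then still had a fitted difference below 0, against 48.9% and 51.3% of all genes. The segments come from the same mice and are not independent of each other. At the level of single transcripts, without zeros, 0 of 61 segment transcripts were called and 8 had an unadjusted p under 0.05 (limma; 1.36% of all transcripts were called).

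Complete separation of the ages was rare among the segments. Of 355 segments with values in all mice, 7 had every PN98 mouse below every PN21 mouse, against 8.21% of all genes, and 1 (*Igha*) had every PN98 mouse above, against 4.59%. The 7 were *Traj48*, *Traj49*, *Trbj2-1*, *Trav6-7-dv9*, *Trav14n-3*, *Trav9n-1* and *Igkv4-90*, of which *Trav9n-1* and *Igkv4-90* fell outside the rule for named genes and were chosen for mention after their values were seen. *Trav14n-3*, the *Trav* member with the highest mean, was at 4.53 to 5.70 FPKM at PN21 and at 3.76, 0.972, 0 and 0 FPKM in m35, m106, m114 and m125. Its difference was −1.76 (SE 0.47; limma adjusted p = 0.0702).

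*Trav6-7-dv9* is a V segment at chr14:53709902-53710417 that can be joined in alpha or delta chains. It was at 1.21, 1.97, 2.29 and 1.78 FPKM in the PN21 mice and at 0.837, 0.440, 0 and 0 FPKM in m35, m106, m114 and m125. The ages did not overlap, and the difference was −1.13 (SE 0.24; limma adjusted p = 0.0379). The segment reached the mean of 1 needed for the test through its PN21 values, so this p carries that selection. The call was lost without the filter on low values (adjusted p = 0.0516), with a pseudocount of 0.1 (0.0796) and without PN21 mouse m1 or PN98 mice m106, m114 or m125 in turn (0.0642 to 0.104). With the other scalings and without m49, m138 or m145 its mean fell below 1 and it was not tested. The segment was identical at 352 of 358 aligned bases (98.3%) to *Trav6d-7* and to *Trav6n-7*, which were at 0.495 to 4.03 FPKM at PN21 and up to 1.62 at PN98, overlapped between the ages and were not called (−0.93, adjusted p = 0.214). The share of reads given to each of the 3 segments is uncertain.

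Each mouse was left out in turn, and leaving out m35, the PN98 mouse with levels like those of PN21, changed the calls most. This mouse was singled out after its values were seen, and leaving it out removes the PN98 levels nearest to PN21. The counts and p values without it therefore describe how the calls depend on m35 and are no further test of age. Without m35, 102 of 200 segments tested were lower at PN98 and 0 higher, against 18.0% lower and 22.3% called in either direction over all genes in the same fit. Among the 102 were *Traj48*, which entered through its PN21 values alone, and *Traj49*, which was at 0 in m106, m114 and m125. Other called segments also reached the mean of 1 through PN21, such as *Trav14n-3* (0.972, 0 and 0 FPKM in m106, m114 and m125). The count of 102 therefore carries that selection too. The 102 included 58 of 130 immunoglobulin V segments, 35 of 41 T cell receptor V segments, 4 of 23 J segments and the constant genes *Trac* (−3.56, adjusted p = 0.0120), *Trbc1* (−3.91, 0.00906), *Trbc2* (−4.05, 0.00868), *Igkc* (−2.99, 0.0309) and *Iglc2* (−2.64, 0.0215). Limma's arrayWeights, which give each mouse a weight from its residuals, called 50 of 223 segments lower and 1 higher with all 8 mice. The share called lower was near the 21.9% over all genes, so it is nothing particular to the segments. At the transcript level 8 segment transcripts were called without m35, in a fit that called 7.67% of all transcripts. How many segment transcripts entered that fit is not given here, so the 8 cannot be set against that share. Mouse m35 carries no label that sets it apart from the other PN98 mice.

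Of the 5 class-switched heavy chain constant genes, *Igha* was higher in every PN98 mouse, and the IgG genes overlapped between the ages. *Igha*, the constant gene of IgA at chr12:113258768-113260236, was at 0.270, 0, 0.105 and 0.497 FPKM in m1, m49, m138 and m145 and at 1.76, 2.04, 1.68 and 1.32 FPKM in m35, m106, m114 and m125. Every PN98 mouse lay above every PN21 mouse, and the 4 PN98 values lay close together although *Igkc* differed 49.3-fold among the same mice. With a mean FPKM just below 1, *Igha* was outside the filtered fit. In the fit without a filter it rose by 1.16 (SE 0.14; limma adjusted p = 0.0132; 3.64% of 27530 genes were called). It also passed in the filtered limma fit after scaling to nuclear genes (1.28, adjusted p = 0.00929) and with median of ratios scaling (1.24, 0.00689). There it reached the mean of 1 only after scaling and through its PN98 values (unscaled mean 1.70 FPKM against 0.218 at PN21). These 2 p values therefore carry that selection and add no further support.

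The IgG genes had their highest values in PN98 mice m35 or m106, and none passed the test in the filtered fit. *Ighg2b* was at 1.10, 0.0375, 0.343 and 0.554 FPKM at PN21 and at 14.1, 30.1, 0.551 and 3.76 FPKM in m35, m106, m114 and m125. *Ighg2c* was at 0.0111, 0.150, 0.101 and 1.23 FPKM at PN21 and at 16.1, 4.07, 0.134 and 0.132 FPKM at PN98. So m35 and m106 held the high values of both genes, and m114 stayed within the PN21 range for each. *Ighg3* had a median of 0.393 FPKM at PN21 and was at 5.11, 1.37, 0.686 and 0 FPKM at PN98, and *Ighg1* at 0 to 0.179 and at 0.633, 1.83, 0.201 and 0 FPKM. The differences were 2.39 (SE 0.84) for *Ighg2b*, 1.32 (SE 0.85) for *Ighg2c* and 0.60 (SE 0.49) for *Ighg3*, with limma adjusted p of 0.126, 0.328 and 0.445. With arrayWeights *Ighg2b* passed (3.27, adjusted p = 0.0262), and in every other alternative it did not (adjusted p 0.0528 to 0.252). *Ighg1* had a mean below 1 and was not called without the filter (0.53, adjusted p = 0.369).

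Set against the kappa constant gene of the same mouse, the contrast between the ages was wider. The 5 class-switched genes together held 0.302, 0.0734, 0.0849 and 0.275 FPKM per 100 FPKM of *Igkc* in the PN21 mice and 2.45, 10.7, 2.94 and 16.7 in m35, m106, m114 and m125. *Igha* alone held 0 to 0.0473 per 100 FPKM of *Igkc* at PN21 and 0.114, 0.554, 1.52 and 4.23 at PN98. For *Ighg2b* the values were 0.00557 to 0.193 at PN21 and 0.499 to 12.1 at PN98. The ages did not overlap in any of these ratios, nor in *Ighg2c* per 100 FPKM of *Igkc* (0.00195 to 0.103 against 0.121 to 1.10), whereas they overlapped for *Ighg3*, which was at 0 in m125. *Igj*, which encodes the joining chain of secreted IgA and IgM, was at 0.219 to 0.770 per 100 FPKM of *Igkc* at PN21 and at 0.971, 1.45, 1.73 and 6.18 at PN98. In m114 and m125 the ratios rest on an *Igkc* level well below that of the PN21 mice. The ratios were chosen after the values were seen and were not tested.

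*Ighm*, the constant gene of the unswitched class, was at 257, 258, 482 and 319 FPKM at PN21 and at 507, 102, 326 and 16.8 FPKM in m35, m106, m114 and m125 (−1.27, SE 0.94, limma adjusted p = 0.398). Mouse m114 stood apart, with 296 FPKM of *Ighm* per 100 FPKM of *Igkc* against 26.7 to 54.0 in the other 7 mice. In m114 the *Ighm* transcript of 1493 bases was at 224 FPKM, against 5.85 to 146 FPKM in the other mice, whereas the transcript of 1698 bases was at 103 FPKM. Taken over *Ighm* and the 5 switched genes, the switched share was 0.664%, 0.192%, 0.221% and 1.02% at PN21 and 6.93%, 27.9%, 0.985% and 23.6% at PN98. Through m114 the ages overlapped in that share. *Ighd*, the other unswitched constant gene, was not analysed here.

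Fewer V segments had any signal in m114 and m125 than in the other mice. Of 113 *Ighv* symbols of the pattern with values, 96, 96, 103 and 85 were above 0 in the PN21 mice and 102, 94, 51 and 29 in m35, m106, m114 and m125. For 109 *Trav* symbols the numbers were 96, 98, 103 and 90 at PN21 and 104, 73, 12 and 7 at PN98. In m114 and m125 a smaller share of the *Trav* than of the *Ighv* symbols was detected. Of 104 *Igkv* symbols 91 to 100 were above 0 at PN21 and 101, 93, 66 and 34 at PN98. Among 23 *Trbv* symbols 21 were above 0 in each PN21 mouse and 21, 20, 6 and 12 at PN98. A value of 0 at low depth does not show that a segment was absent, and the relative depth of the libraries is given with the J segments below.

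**Figure D2:**
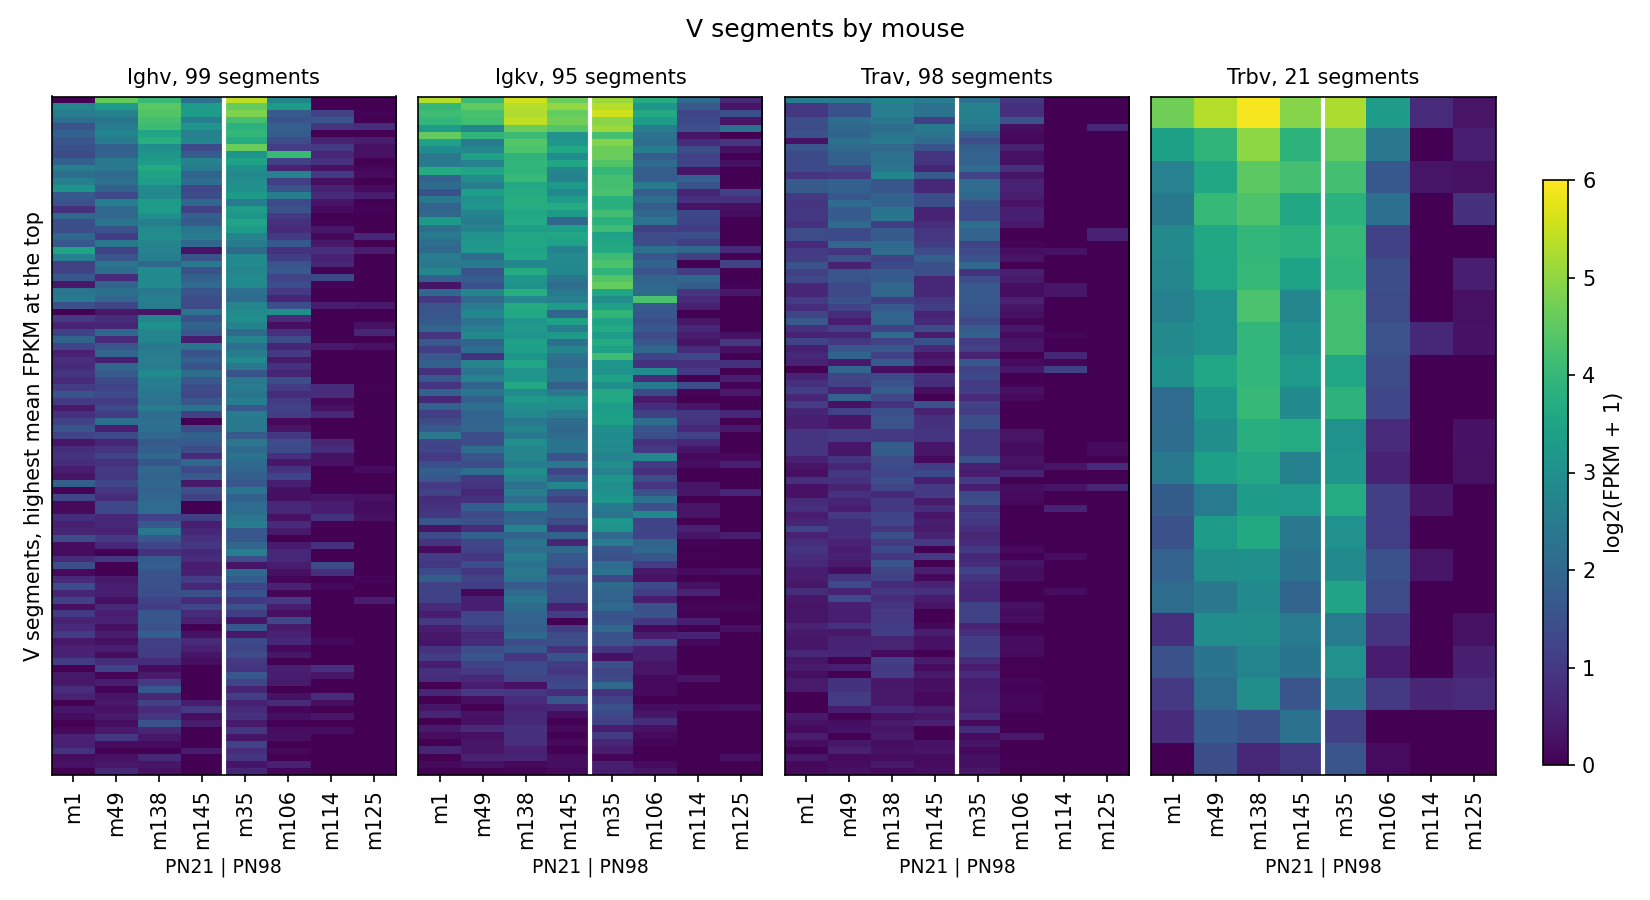
V segment members (rows, highest mean at the top) by mouse (columns) as log2(FPKM + 1), from 0 in dark blue to 6 in yellow, with a white line between PN21 and PN98. The columns of m114 and m125 are dark in all 4 panels, as in *Trav* with 12 and 7 segments above 0, and the column of m35 resembles those of PN21.

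Which V segment led varied from mouse to mouse for the heavy chain, and less so for the beta chain. A difference in the leading segments between the ages was not tested. *Trbv13-2* had the highest FPKM of the *Trbv* segments in 7 of the 8 mice. It was at 25.0, 39.3, 59.7 and 28.9 FPKM at PN21 and at 37.3, 8.85, 0.657 and 0.251 FPKM at PN98, a difference of −2.81 (SE 1.02; limma adjusted p = 0.135). *Trbv16* (9.65 to 30.5 FPKM at PN21 and 0 to 22.4 at PN98) and *Trbv1* (5.33 to 21.6 and 0.201 to 17.4) came next, with differences of −2.18 and −2.13 and adjusted p of 0.176 and 0.163. All 3 had m35 within the PN21 range and m106, m114 and m125 below it.

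Among kappa V segments, *Igkv19-93* (16.4 to 46.4 FPKM at PN21, 0.628 to 34.0 at PN98), *Igkv1-117* (14.9 to 39.1 and 0.253 to 39.5) and *Igkv10-96* (16.5 to 38.2 and 1.43 to 46.4) had the highest means, and their differences of −2.10 to −1.58 did not pass (limma adjusted p 0.183 to 0.275). The lambda segments *Iglv1*, *Iglv2* and *Iglv3* were at 16.3 to 50.9, 8.72 to 27.5 and 7.80 to 17.7 FPKM at PN21. At PN98 they were at 1.10 to 53.4, 0.798 to 22.7 and 0 to 23.6 FPKM, and none was called (adjusted p 0.242 to 0.334). In each of these kappa and lambda segments the highest PN98 value was that of m35.

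In the heavy chain, the leading segment was another one in nearly every mouse. *Ighv1-2* was at 0, 22.8, 15.7 and 3.69 FPKM at PN21 and at 41.3, 5.69, 0 and 0 FPKM at PN98, and it led in m49 and m35. *Ighv6-6* led in m1 with 7.31% of the *Ighv* sum, *Ighv1-53* in m106 with 13.1% and *Ighv9-3* in m125 with 12.2%. *Ighv1-82* (5.60 to 21.2 FPKM at PN21, 0 to 23.1 at PN98) led in m138 and *Ighv1-26* (4.71 to 19.7 and 0.0499 to 27.8) in m145. The fitted differences of *Ighv1-2*, *Ighv1-82* and *Ighv1-26* were −0.68, −1.47 and −1.25 (limma adjusted p = 0.774, 0.378 and 0.409). The Ighv1 family, which has 52 of the *Ighv* members, held 51.8% to 62.5% of the *Ighv* sum at PN21 and 60.1% to 78.0% at PN98. In m125 the shares rest on 28 *Ighv* members above 0.

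*Trav* values are limited by duplicated sequence, since the mouse alpha locus holds copies of a whole block of V segments. Of 296 V members with a single transcript and a sequence, 22 in 11 pairs had the same sequence as another member, and 20 of the 22 were *Trav* segments. In 10 of the 11 pairs both members carried the same FPKM in all 8 mice (within a relative difference of 0.0001). *Trav3d-3* and *Trav3n-3* were such a pair, each at 0.963, 1.84, 4.91 and 3.82 FPKM at PN21 and at 5.26, 0.777, 0 and 0 FPKM at PN98 (−0.96, limma adjusted p = 0.337). For such pairs the table gives 1 measurement listed under both names.

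The short J segments needed another reading of the values. For each segment length a step was sought, scaled to the mouse, of which every J value above 0 was a whole multiple within 0.02. Such a step was found for all 16 lengths, so that the 199 values fit it by construction. That step was read as the FPKM of 1 fragment. Scaled to m138, the step fell from 1741 FPKM for a segment of 49 bases to 69.6 FPKM for 72 bases, a 25.0-fold range. The step at 72 bases rests on 1 fragment of *Traj61* in m35 (61.3 FPKM), and m138 itself had no value at that length. At these steps 1 fragment on a J segment gave a higher FPKM than any V segment had in m138. The summed FPKM of the 23 J members (28304 to 68656 at PN21 and 1080 to 51707 at PN98) is therefore weighted towards the shortest segments. The ratio of steps between mice also gives the depth of each library relative to m138, namely 1.30, 0.963, 1 and 0.848 in the PN21 mice and 1.14, 1.65, 0.754 and 0.984 in m35, m106, m114 and m125. FPKM is already divided by library size, so these depths bear on the detection of rare segments and are no scale for the sums. An effect of depth on the segments was not tested.

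Counted as fragments, the 23 J members held 343 fragments in the PN21 mice, with at least 61 in each, and 101, 32, 10 and 2 in m35, m106, m114 and m125. Over all 87 J symbols there were 480 fragments at PN21 and 194 at PN98. Scaled to the depth of m138, these totals were 65.4, 133, 172 and 112 at PN21 and 128, 21.8, 14.6 and 2.03 at PN98. The order of the PN98 mice was that of *Igkc* and *Trac*. By locus, 59 *Traj* symbols held 44, 76, 101 and 54 fragments at PN21 and 81, 16, 4 and 0 at PN98, and 14 *Trbj* symbols held 21, 29, 42 and 32 at PN21 and 42, 8, 3 and 2 at PN98. The 4 *Ighj* symbols held 18, 19, 28 and 9 fragments at PN21 and 22, 11, 4 and 0 at PN98, and the 5 *Igkj* symbols held 0 in every mouse. The *Igkj* segments are 36 to 43 bases long, and no J segment shorter than 49 bases had a value above 0 in any mouse, so that these zeros say nothing about the use of *Igkj*.

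*Traj48* rests on 9 fragments. It had 1, 1, 2 and 5 fragments in m1, m49, m138 and m145, or 168, 227, 437 and 1288 FPKM, and 0 fragments in all 4 PN98 mice. Since it was selected through its PN21 values, no p is given for it, and the fitted difference of −8.58 on the log2(FPKM + 1) scale depends on the pseudocount and is no bound. Taking a floor of 3 fragments over the PN98 group and the relative depths, *Traj48* came out 3.30-fold higher at PN21. That figure takes the 9 PN21 fragments as exact, so their counting error is not covered and it is no lower bound. It also describes a segment chosen through its PN21 values. Of the 9 fragments 5 came from m145, and without that mouse, a setting chosen after the data were seen, the figure was 1.85-fold. A single fragment is worth 132 to 289.5 FPKM at its length of 60 bases, so that a count of 1 already lies far from 0 on the log scale. Of 101 *Traj* fragments at PN98, 81 came from m35.

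No other J member was called, and those given singly here had more fragments than *Traj48*. *Trbj1-3*, the J member with the most fragments, had 4, 11, 15 and 18 at PN21 and 13, 1, 2 and 2 at PN98, and it was the 1 J member above 0 in all 8 mice (−2.06 on the log2(FPKM + 1) scale, limma adjusted p = 0.186). *Trbj2-1* had 5, 4, 8 and 9 fragments at PN21 and 1, 2, 0 and 0 at PN98, a difference of −7.75 (limma adjusted p = 0.113). *Trbj2-3* had 1, 5, 7 and 0 fragments at PN21 and 9, 1, 0 and 0 at PN98. All 3 had more fragments in the PN21 mice together than in the PN98 mice together. *Traj23* had 0, 7, 7 and 8 fragments at PN21 and 5, 1, 0 and 0 at PN98. *Traj27* had 5, 4, 5 and 2 fragments at PN21 and 0, 5, 0 and 0 at PN98, so that here m106 and not m35 held the fragments of PN98 (−7.46, adjusted p = 0.0750). *Traj49* had 4, 3, 3 and 2 fragments at PN21 and 2, 0, 0 and 0 at PN98 (−7.28, adjusted p = 0.0621). These 3 alpha chain segments were at 0 in m114 and m125. In the heavy chain *Ighj1* had 13, 9, 15 and 1 fragments at PN21 and 5, 1, 2 and 0 at PN98, and *Ighj4* had 3, 10, 13 and 8 at PN21 and 17, 10, 2 and 0 at PN98. The J members not given singly, *Traj11*, *Traj16*, *Traj17*, *Traj18*, *Traj21*, *Traj22*, *Traj32*, *Traj37*, *Traj39*, *Traj43*, *Trbj1-4*, *Trbj1-5*, *Trbj1-6* and *Trbj2-2*, had 0 to 11 fragments in a mouse, and none was called.

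**Figure D3:**
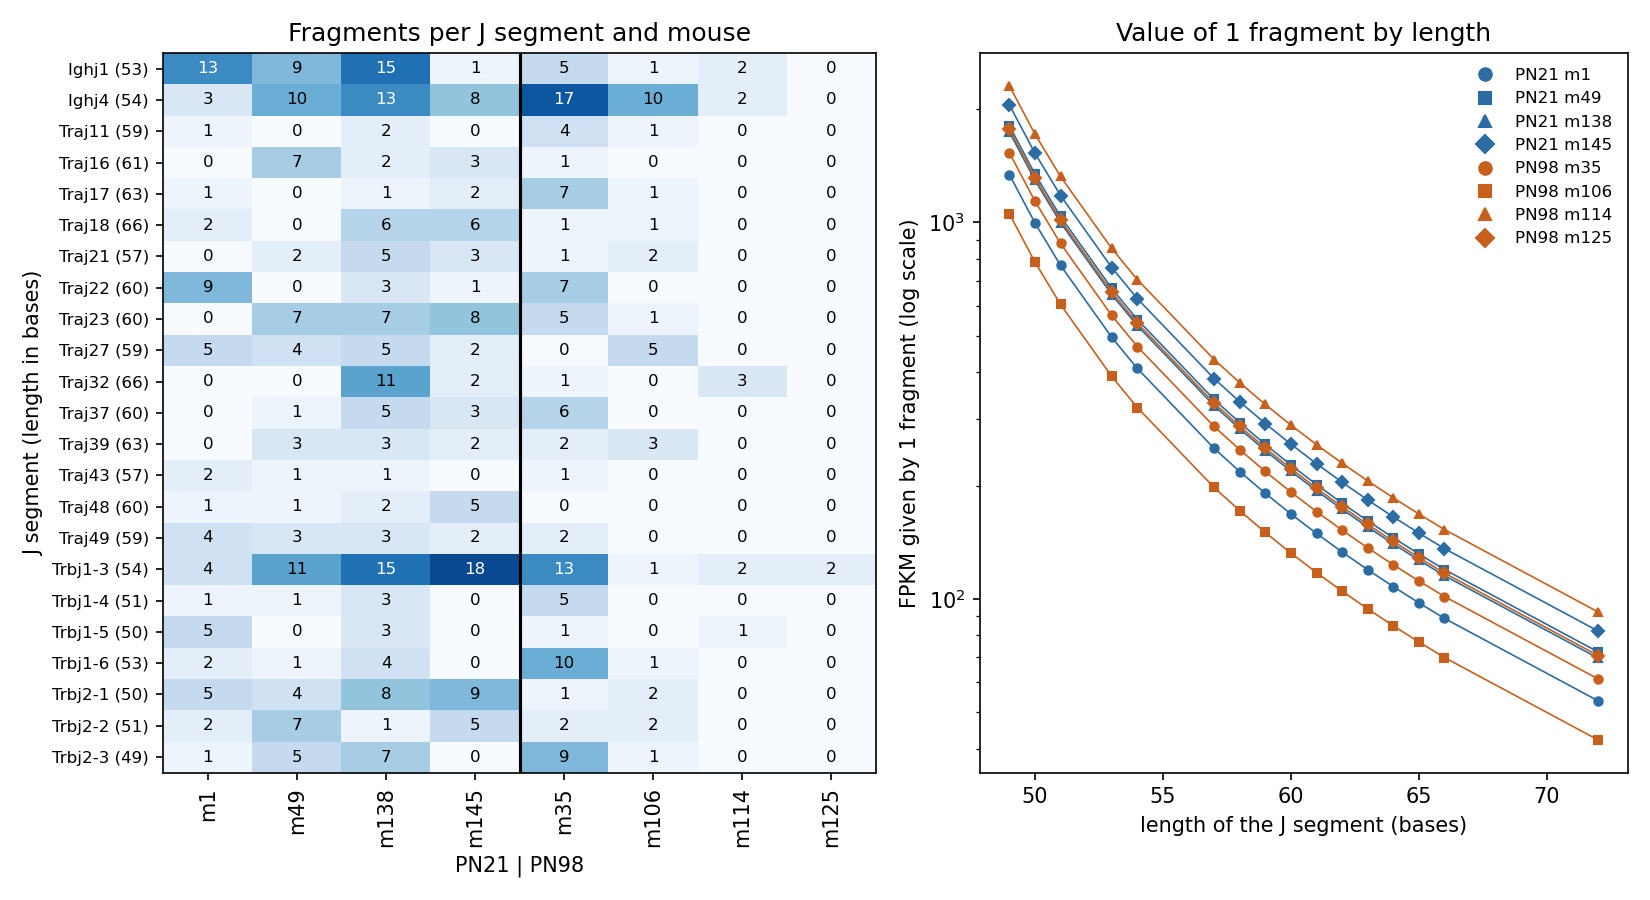
Left, fragments per J member (length in bases in brackets) and mouse, with a black line between PN21 and PN98; right, the FPKM that 1 fragment gives (log scale) against segment length for each mouse. *Traj48* has 1, 1, 2 and 5 fragments at PN21 and 0 at PN98. Scaled to m138, the value of 1 fragment falls 25.0-fold from 49 to 72 bases, where the step was read from m35 alone.

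Markers of lymphocytes moved with the segments. Over all genes tested, 67.2% had a fitted difference below 0 and 5.29% were called in either direction. Of 14 B cell markers tested 14 had a fitted difference below 0 and 0 were called (limma; median −1.71), and their summed FPKM was 613 to 1362 at PN21 and 1409, 298, 393 and 29.4 in m35, m106, m114 and m125. *Ighm* is on this list and gave most of the sum in m114. The 13 other markers, a sum chosen after the data were seen, came to 356 to 881 FPKM at PN21 and 902, 197, 66.4 and 12.5 FPKM at PN98. *Cd79a*, a signalling subunit of the B cell receptor, was at 58.4 to 147 FPKM at PN21 and at 157, 32.2, 10.4 and 1.32 FPKM at PN98. Per 100 FPKM of *Igkc* it was at 8.49 to 11.7 in every mouse but m125, where it was at 4.24. Of 21 T cell markers tested 21 had a fitted difference below 0 and 0 were called (median −2.07), and they summed to 510 to 1234 FPKM at PN21 and 1024, 189, 43.2 and 26.1 FPKM at PN98. *Cd3e*, a subunit of the T cell receptor complex, was at 13.0 to 34.4 FPKM at PN21 and at 23.2, 3.68, 0.502 and 1.06 FPKM at PN98. Of 7 plasma cell markers tested 0 were called (limma; median −0.59), and the list summed to 113 to 143 FPKM at PN21 and 81.3 to 158 FPKM at PN98. *Xbp1*, a transcription factor of secretory cells that adipocytes also express, gave 65.0 to 91.5 FPKM of that in every mouse. Without it, again a sum chosen after the data were seen, the list came to 41.9 to 78.3 FPKM at PN21 and 86.8, 24.3, 14.3 and 9.23 FPKM at PN98. Among them *Mzb1*, a chaperone of antibody secretion, was at 10.2 to 24.3 FPKM at PN21 and at 19.2, 4.05, 1.54 and 0.295 FPKM at PN98, and *Igj* at 1.48 to 4.40 and at 14.9, 5.33, 1.91 and 1.93 FPKM.

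Some genes of lymph node vessels fell at PN98, and some adipocyte genes rose. Of 8 lymph node genes tested 4 were lower (2.96% of all genes were called lower) and 0 higher. *Glycam1*, a ligand of L-selectin on high endothelial venules, was at 578, 805, 1197 and 1307 FPKM at PN21 and at 105, 25.9, 3.03 and 1.83 FPKM in m35, m106, m114 and m125 (−6.11, SE 1.07, adjusted p = 0.0206). The others were *Madcam1* (−2.03), *Fut7* (−1.87) and *Chst4* (−1.60), all of these venules. Unlike *Igkc* and *Trac*, *Glycam1* was lower in m35 than in every PN21 mouse, while the order of the 4 PN98 mice was the same. The stromal chemokines of the list were not called, and in m35 they lay near the PN21 mice, as the segments did. *Ccl21a* was at 119 to 285 FPKM at PN21 and at 304 FPKM in m35, *Ccl19* at 20.3 to 55.9 and at 42.2, and *Cxcl13* at 17.0 to 59.7 and at 54.2. In m106, m114 and m125 they lay below the PN21 mice. There *Ccl21a* was at 25.6, 4.23 and 2.07 FPKM, *Ccl19* at 4.27, 1.33 and 0.704, and *Cxcl13* at 16.3, 7.70 and 9.32. Of 8 adipocyte genes 3 were higher, *Adipoq* (1.45), *Cidec* (2.16) and *Lipe* (0.99), where 2.32% of all genes were called higher. *Adipoq* was at 817 to 1279 FPKM at PN21 and at 2512 to 3653 at PN98. The part of lymph node tissue and of adipocyte RNA in the levels of the segments was not tested.

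**Figure D4:**
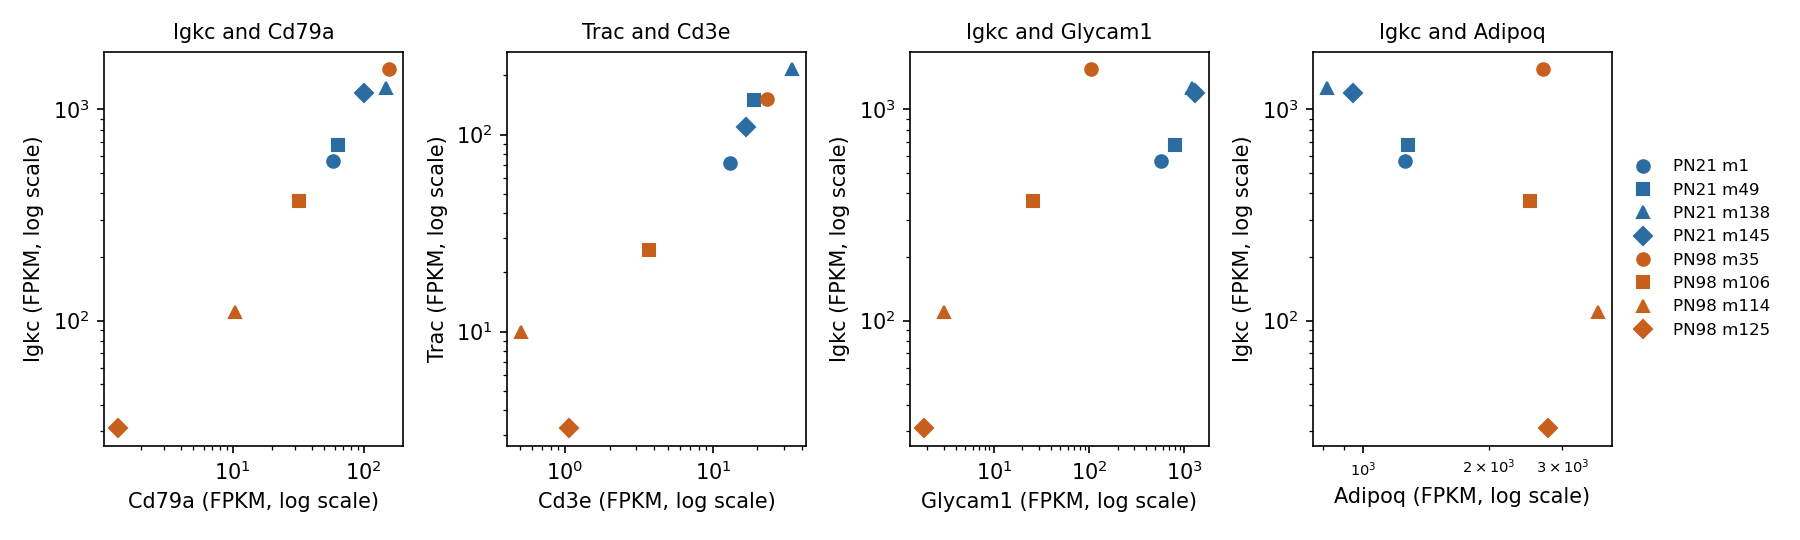
FPKM of *Igkc* against *Cd79a*, *Glycam1* and *Adipoq*, and of *Trac* against *Cd3e*, per mouse on log scales. *Igkc* and *Cd79a* line up over all 8 mice, whereas m35 has the highest *Igkc* (1539 FPKM) at a *Glycam1* of 105 FPKM, below the 578 to 1307 FPKM of the PN21 mice.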

How the data were processed

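Inguinal fat of 4 mice at PN21 and 4 at PN98 was sequenced as poly(A)+ RNA. Per the labels and the study's methods, the authors mapped reads to mm10 (GRCm38) with STAR 2.3.0 and deposited FPKM per transcript from Cufflinks 2.1.1 on a Gencode annotation. Many deposited values had lost their decimal mark. Marks were restored from the deposited standard deviation, average and score (39559 of 91969 transcripts), 23 transcripts with more than 1 reading were taken from a second deposited table and 33 were left out. All 4838 restored transcripts in that table were equal in 8 mice. Its fold change and p-value columns, the authors' own comparison, were not used.

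FPKM were summed per gene, a pseudocount of 1 was added, and ages were compared with limma 3.58.1 (R 4.3.3) on log2 values of genes with a mean of at least 1, with Benjamini-Hochberg adjustment over all genes, PN98 minus PN21. The procedure was tested on simulated data. Transcripts above 0 in all mice with a mean above 2 at an age were fitted on log2 FPKM, with the filter that the study states. Named with values were all constant genes, called members, the 3 highest V segments of each locus, all J members, *Ighm*, and called genes of lists for B, plasma and T cells, receptor rearrangement, NK cells, lymph node stroma, adipocytes, epithelium, muscle, macrophages and immunoglobulin transport. Members and lists were chosen with earlier results of these data known. The files hold no read counts; only relative depth could be read, from J segments. Alternatives were another pseudocount, no filter, 2 scalings, arrayWeights and leaving out each mouse.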

Additional observations from a re-analysis of the deposited data

Results flagged for a closer look

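A mouse was set apart where, among the 4 mice of an age, the gap to its nearest neighbour took up most of the range (Dixon's test at the 95% level). Of 142 groups looked at, 33 had such a mouse. The test flags about 1 in 20 groups by chance where values are normally distributed, which FPKM with many zeros are not. The count of 33 is therefore not set against that rate. Where the other mice of an age were all at 0, as for *Traj16* at PN98, the flag followed from the zeros alone. The groups share mice and the genes move together, so they are not independent. Most flags were m35 as the highest PN98 mouse. This held for *Ighv1-2* (41.3 FPKM), *Ighv1-26* (27.8), *Iglv1* (53.4), *Trac* (152), *Trbc1* (180), *Trbc2* (218), *Trbv1* (17.4), *Trav3d-3* and *Trav3n-3* (5.26 each), *Trdv2-2* (1.35) and *Trdv5* (1.80). It also held for *Traj16* (171 FPKM), *Traj17* (956), *Traj22* (1345), *Traj23* (961), *Traj37* (1153), *Traj43* (287), *Traj49* (436), *Trbj1-4* (4397), *Trbj1-6* (5663) and *Trbj2-3* (13792), where a value of 171 is a single fragment. Among sums, m35 was apart in T cell receptor constant genes (549 FPKM), the *Trbc* genes (397), T cell receptor V segments (399.7), *Trav* (144), *Trbv* (249), *Trdv* (4.86) and *Trbj* (33975).

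Other mice were apart in 5 groups. At PN21 these were m145 with the highest *Ighg2c* (1.23 FPKM) and the lowest *Traj49* (584), m138 with the highest *Ighv* sum (440) and m1 with the lowest *Trdv* sum (1.58). At PN98 it was m106 with the highest *Traj27* (750.5 FPKM). No cause of any of these was tested.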

How the results depend on the processing

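Called members depended on the setting. Against 2 lower and 0 higher, the count lower was 1 with a pseudocount of 0.1 or scaling to nuclear genes and 50 with arrayWeights, and 1 gene was higher without the filter, with scaling to nuclear genes, with median of ratios scaling (*Igha* in each) and with arrayWeights (*Ighg2b*). Leaving out single mice gave 1 to 102 lower, the highest without m35, and 0 to 1 higher. Over all genes, 853 calls became 4686 with arrayWeights and 214 to 3574 without single mice. Segment transcripts called were 1 with zeros kept and 0 to 8 without single mice, 8 without m35. The summed differences kept their direction in each alternative. Without single mice they were −2.84 to −1.08 (immunoglobulin constant), −2.83 to −0.93 (immunoglobulin V), −3.94 to −2.21 (T cell receptor constant), −4.09 to −2.27 (T cell receptor V) and −3.44 to −1.58 (J). Signs turned for uncalled segments only. With arrayWeights *Traj21* became 0.46 and *Traj39* 0.80. Without single mice *Ighv1-2* ranged from −1.80 to 0.000694, *Traj11* from −1.72 to 1.72, *Traj32* from −2.37 to 1.18 and *Trbj1-5* from −2.84 to 1.25. The cause was not tested. No paired analysis was possible because the mice of each age carry numbers of their own. FPKM without counts leaves the precision of low V segments unknown, and J segments rest on few fragments.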

Other observations

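Of 8 genes on the receptor rearrangement list 2 could be tested and 0 were called (limma; 0 at an unadjusted p under 0.05), with a median of −0.88. *Rag1*, a subunit of the recombinase, was at 0.182 FPKM or less in every mouse. *Vpreb1* and *Vpreb3*, components of the pre-B cell receptor or related to it, were at 6.13 to 13.9 and at 0.843 to 16.1 FPKM. The NK and gamma delta related genes summed to 27.1 to 54.1 FPKM at PN21 and 40.8, 15.6, 13.4 and 9.10 FPKM in m35, m106, m114 and m125 (0 of 5 called, median −0.58), and *Il17a* was at 0 in all mice.

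Macrophage genes summed to 546 to 881 FPKM at PN21 and 252 to 969 FPKM at PN98 (0 of 8 called, median −0.24), and genes of immunoglobulin transport such as *Fcgrt*, the neonatal Fc receptor, to 186 to 265 and 188 to 258 FPKM (0 of 4 called, median −0.00). Of 4 epithelial genes *Epcam* was lower at PN98 (−1.16, limma adjusted p = 0.0419), and of 4 skeletal muscle genes *Atp2a1* was higher (4.20, adjusted p = 0.0394). Over all genes tested, 2.96% were called lower and 2.32% higher.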
